A study of Sus scrofa with 26 samples.

Results

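The growth hormone and insulin-like growth factor (IGF) axis was measured in the subcutaneous adipose tissue (SCAT) of pigs through 10 genes: the growth factors IGF1 and IGF2, the receptors IGF1R, IGF2R and GHR, and the binding proteins IGFBP2, IGFBP3, IGFBP4, IGFBP5 and IGFBP6. Every probe that the array annotation assigns to one of these genes, by gene name, accession or description, was taken. The rule used no measured value, although the set of genes was proposed with earlier results of these data known. This gave 46 of the 60305 probes of the array and 10 of the 11795 named genes. Of the 46 probes, 43 were well above background on at least 8 arrays and were tested, among 44703 tested probes in all.

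The tissue came from 26 castrated male pigs, each hybridised to its own one-colour microarray. The pigs were Creole, Large White (LW) or the cross between both (F1), and pigs of each breed were slaughtered at a thermoneutral 24 °C (TN) or after heat stress (HS), which the labels put at 30 °C and the protocol text at 32 °C for 5 days. The groups were Creole TN (n = 3), Creole HS (n = 5), F1 TN (n = 4), F1 HS (n = 5), LW TN (n = 4) and LW HS (n = 5). The TN pigs were slaughtered before the temperature was raised, so temperature, slaughter day and age cannot be told apart. Each breed came from a few litters whose members were spread over the pens. The labels do not say which pigs were littermates, so all were treated as separate animals and p-values measure the spread between these pigs.

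Growth hormone from the pituitary acts on GHR, a cytokine receptor that signals through JAK2 and STAT5 and raises IGF1 transcription in liver and fat. IGF1 and IGF2 signal through IGF1R, whereas IGF2R binds IGF2 and carries it to the lysosome. The binding proteins hold the IGFs in the circulation and in the tissue and set how much reaches the receptor. IGF2 is an imprinted gene, expressed mainly from the copy inherited from the father. In pigs it lies next to the insulin gene, and IGFBP2 and IGFBP5 are neighbours on another chromosome.

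The probes are 60-base oligonucleotides. The following IGF2 probes lie in the coding sequence and are shown because the largest breed difference among the members rests on them. Capitals mark the 38 bases that the first pair shares.
IGF2 A_72_P537638: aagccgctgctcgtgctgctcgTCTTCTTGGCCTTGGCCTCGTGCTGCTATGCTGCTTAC
IGF2 A_72_P537644: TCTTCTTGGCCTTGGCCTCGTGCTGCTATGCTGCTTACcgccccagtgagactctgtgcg
The third coding probe is in capitals throughout because A_72_P414438 has the same 60 bases and serves as a repeat of the measurement.
IGF2 A_72_P544532: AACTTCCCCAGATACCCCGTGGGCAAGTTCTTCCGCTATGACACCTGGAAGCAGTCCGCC
The IGF2 probe with the highest level, A_72_P376458, is shown by its last 30 bases, with the run of A at its end in capitals.
IGF2 A_72_P376458: acaccagaaaagcgaattagctttAAAAAA
For IGFBP6, the 28 bases in capitals are those that 2 of its 4 probes share.
IGFBP6 A_72_P088481 and A_72_P710138: GGGGTATTAATAAAGCCGTGTTGGGGTC
A pair of GHR probes gave different breed contrasts and is shown for that reason. The first is given by its last 30 bases, with a terminal run of A in capitals. The second is given whole, with the stop codon of the receptor in capitals.
GHR A_72_P060151: tcaacttaccatgaccccaactctAAAAAA
GHR A_72_P441429: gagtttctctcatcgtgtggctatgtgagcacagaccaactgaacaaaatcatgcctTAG
For IGFBP2, the first 30 bases of A_72_P634395 are shown, all of them in capitals because A_72_P178161 holds them too. Its 4 probes gave like differences, and 3 of them overlap.
IGFBP2 A_72_P634395: GAAAAAAGAAATTTTTATTTTTGAACCCCT
The first 30 bases of 2 IGF1 probes are shown because these probes, too, gave different values.
IGF1 A_72_P306168: agaggaagaattacagcagcacaatttctg
IGF1 A_72_P232282: gtttgaaaacatttcaaaagatgggcattc

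Of 8 adipocyte markers, 7 were on the array. All 7, ADIPOQ, FABP4 and PLIN1 among them, were well above background on all 26 arrays. The skeletal muscle markers ACTA1 and CKM were so too, as were 68.5 to 76.6% of the spots of an array. Being above background thus does not set fat apart from other tissue. Between 41314 and 46185 spots per array were well above background, no spot was saturated, and arrays of the same group correlated at 0.981 to 0.993. The arrays were spread over 5 slides. Levels are log2 of quantile-normalized median pixel intensity. Levels of different probes cannot be compared, since each probe has its own response, so each comparison is within a probe. Each gene is represented by its tested probe with the highest mean level. With bulk tissue, fewer cells of a type and less RNA per cell cannot be told apart.

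The difference between LW and Creole was carried by IGF2, IGFBP6 and IGFBP2, all 3 higher in LW. In the additive model of breed and temperature, these 3 of the 10 genes passed an adjusted p of 0.05 and none was lower in LW. Over all named genes, 15.3% passed this test in either direction and 6.67% were higher in LW. The median difference was 0.28 on the log2 scale over the 10 genes and -0.0088 over all named genes. Counted by probe, 18 of the 43 passed, 17 higher and 1 lower in LW, against 14.3% of all probes. The probes of a gene are not independent of each other. The test of any difference among the 3 breeds called 3 of 10 genes, where 11.7% of named genes passed.

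Some markers of cell types also differed between the breeds. Of the 7 adipocyte markers, 2 were lower in LW than in Creole, the hormone gene LEP (log2 difference -1.23, adjusted p = 0.0438) and the lipid droplet gene CIDEA (-0.31, adjusted p = 0.0103), and none was higher. LEP differed most. The markers that did not pass lay between -0.16 (CIDEC) and 0.0028 (ADIPOQ), and the median over the 7 was -0.14. The adipocyte score is the mean over the markers of the log2 level minus the marker's mean over all arrays. It ranged from 0.0488 to 0.451 in Creole, from -0.192 to 0.215 in F1 and from -0.334 to 0.000656 in LW. Of the 10 markers of fibroblasts and other stromal cells, 4 were higher in LW (COL1A1, COL1A2, DCN and DPT) and none lower, with a median difference of 0.37. The stromal score ranged from -0.741 to 0.203 in Creole, from -0.299 to 0.108 in F1 and from -0.114 to 0.46 in LW. Of the 6 endothelial markers, KDR, a receptor of vascular growth factors, was higher in LW (0.87, adjusted p = 0.00136), and the endothelial score ranged from -0.408 to 0.135 in Creole, from -0.219 to 0.232 in F1 and from -0.0272 to 0.162 in LW. The myelin gene PMP22, a Schwann cell marker, was also higher in LW (0.33, adjusted p = 0.00965). The part of adipocyte, endothelial and Schwann cell markers in the member differences was not tested. None of the tested markers of macrophages (6), skeletal muscle (9), keratinocytes (2) or hepatocytes (5) passed in LW minus Creole or HS minus TN by limma. The skeletal muscle markers nevertheless had a median LW minus Creole difference of -0.92, and the 2 keratinocyte markers one of 0.91. The muscle score ranged from -1.44 to 2.8 in Creole, from -1.01 to 1.12 in F1 and from -2.45 to 1.93 in LW. Their part in the member differences was not tested either.

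**Figure D1:**
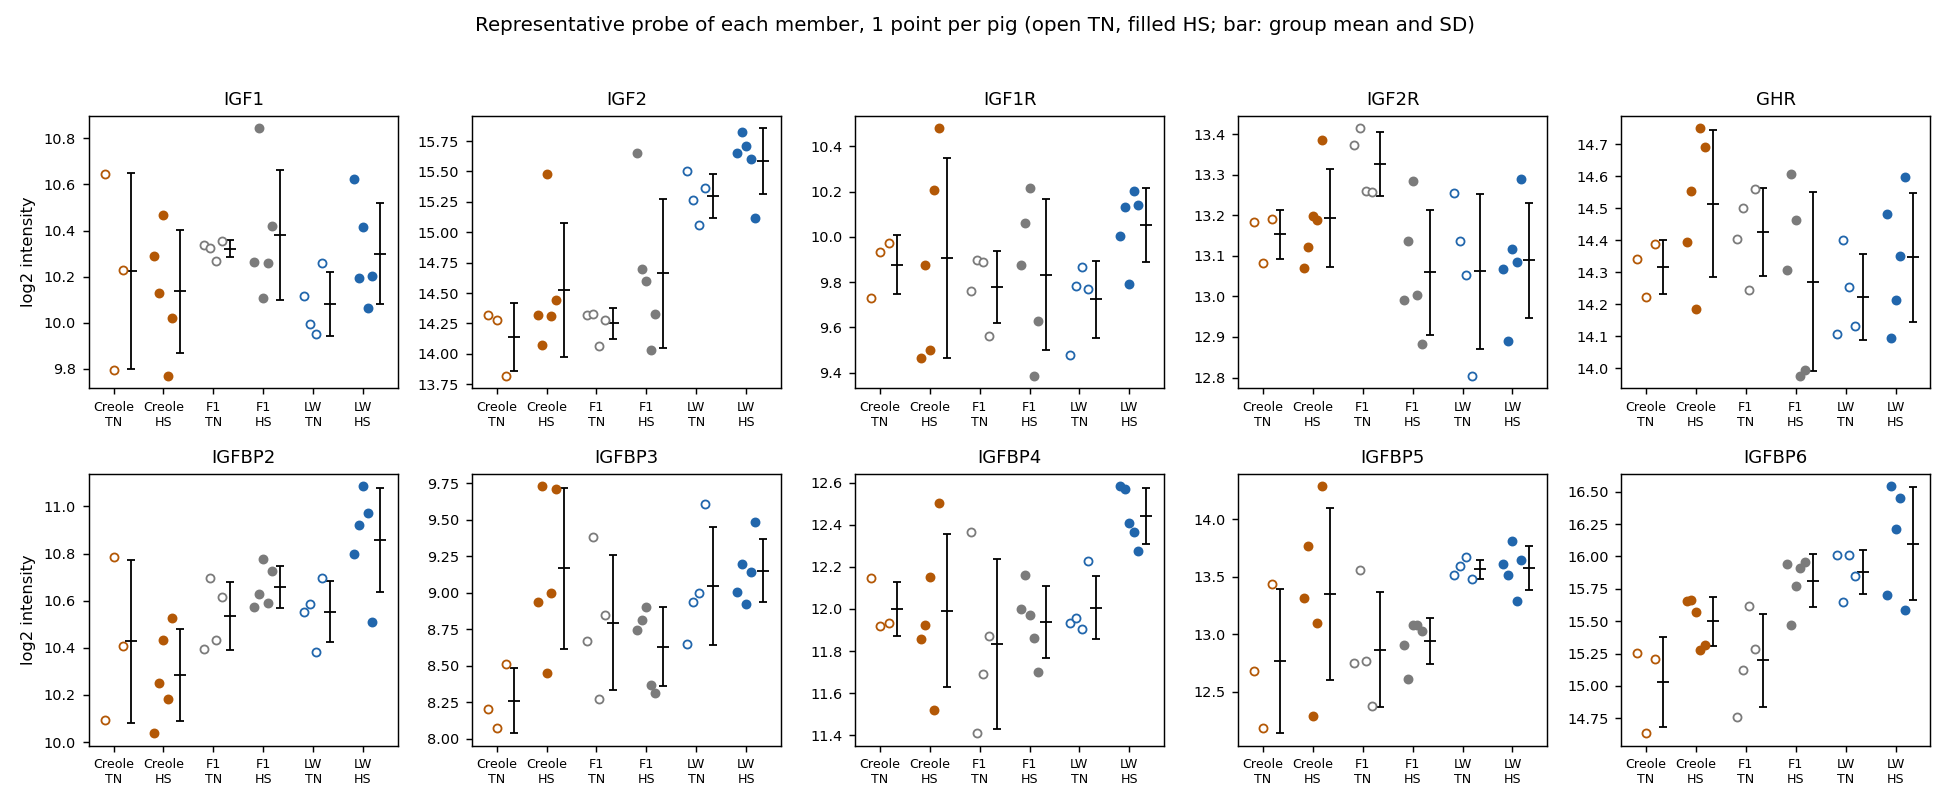
Levels (log2 intensity, vertical axes with separate ranges) of the representative probe of each of the 10 members in the 6 groups of breed and temperature; each point is 1 pig, open for TN and filled for HS, and the bars give the group mean and SD. The IGF2 levels of all 9 LW pigs lie at 15.06 or above, and those of 7 of the 8 Creole pigs lie at 14.44 or below.

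IGF2, a growth factor of fetal and muscle growth that adipose tissue also expresses, had the largest breed difference of the 10 genes. In Creole TN its levels were 14.32, 14.28 and 13.82, and in Creole HS they were 14.32, 14.07, 15.48, 14.31 and 14.44. In LW TN they were 15.50, 15.26, 15.06 and 15.36, and in LW HS they were 15.65, 15.83, 15.71, 15.60 and 15.12. All LW pigs were thus above all Creole pigs except 1, the Creole HS pig at 15.48, which lay inside the LW range. The means were 14.38 ± 0.49 (SD, n = 8) in Creole and 15.46 ± 0.27 (SD, n = 9) in LW. The fitted difference was 1.10 on the log2 scale, or 2.14-fold (SE 0.18, limma adjusted p = 0.000441), with an interval from 0.73 to 1.47. All 9 LW pigs were above the Creole mean.

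The F1 pigs were mostly in the range of the Creole pigs for IGF2. In F1 TN the levels were 14.32, 14.33, 14.07 and 14.28, and in F1 HS they were 15.65, 14.70, 14.60, 14.03 and 14.33. Thus 8 of the 9 F1 pigs lay below the lowest LW pig, and the other, at 15.65, lay inside the LW range. F1 was lower than LW by 0.98 on the log2 scale (log2 difference -0.98, limma adjusted p = 0.00706), where 4.25% of named genes passed. The difference between F1 and Creole was 0.12 with an interval from -0.24 to 0.49 (adjusted p = 0.887). F1 lay 0.43 below the mean of both parental breeds (log2 difference -0.43, interval -0.74 to -0.12), which did not pass the adjustment over all probes (adjusted p = 0.398).

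All 8 tested IGF2 probes passed in LW minus Creole and in F1 minus LW. Their LW minus Creole differences ranged from 1.10 to 1.21 on the log2 scale, with adjusted p-values between 0.000408 and 0.00164. Across the 26 arrays, the probes correlated with each other at 0.975 to 0.998, and the 2 probes of identical sequence at 0.998. The coding probes A_72_P537638 and A_72_P544532 differed between LW and Creole by 1.17 and 1.20. The Creole HS pig and the F1 HS pig that stood high did so on all 8 probes. The ninth probe, O7061, designed on the transcript that joins INS and IGF2, was well above background on 6 arrays only and was not tested.

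**Figure D2:**
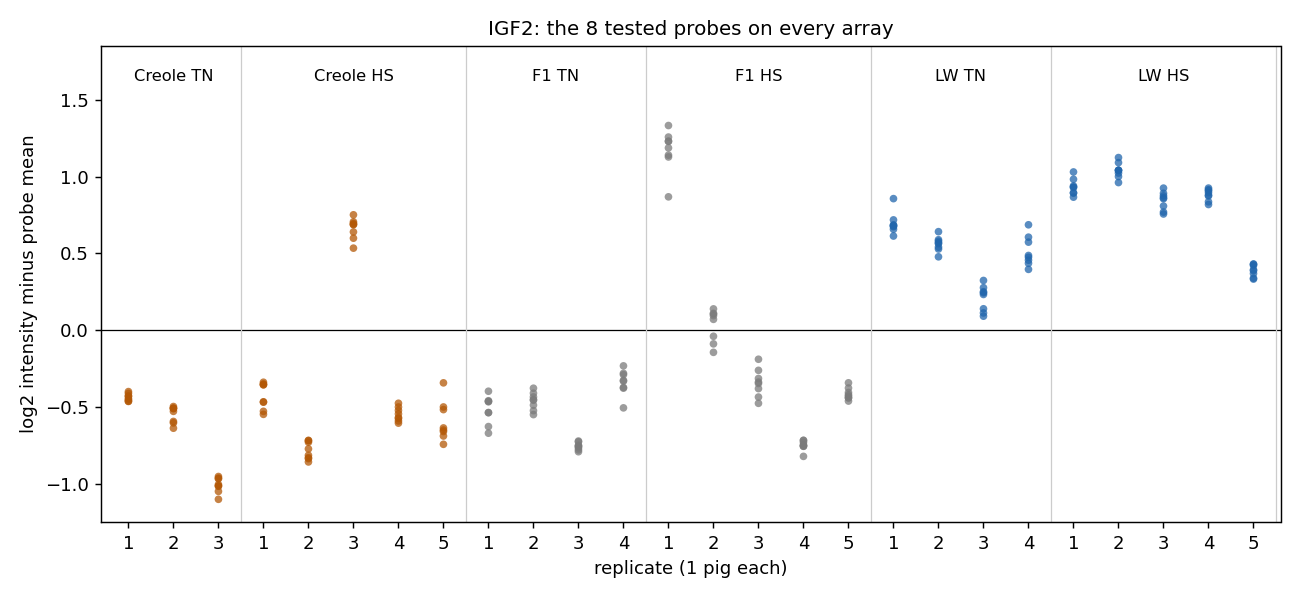
Levels of the 8 tested IGF2 probes on each of the 26 arrays, as log2 intensity minus the mean of the probe over all arrays (vertical axis), with the pigs ordered by group (horizontal axis, replicate number); each point is 1 probe on 1 array, coloured by breed. The probes move together on every array, and replicate 3 of Creole HS and replicate 1 of F1 HS reach the LW values on all 8.

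In TN the IGF2 difference between LW and Creole was 1.16 (interval 0.56 to 1.76) and in HS it was 1.06 (interval 0.56 to 1.56). It passed the adjustment in HS (limma adjusted p = 0.015) and not in TN (adjusted p = 0.0839). The interaction of breed and temperature did not pass for IGF2 (adjusted p = 0.99). LW was above Creole within each of the 4 slides that held both breeds, by 0.65 to 1.54, and with slide as a block the difference was 1.12 (adjusted p = 0.00129).

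IGFBP6, a binding protein that prefers IGF2 to IGF1, was higher in LW and was the one member gene called in HS minus TN. In Creole TN its levels were 15.25, 14.63 and 15.21, and in Creole HS they were 15.66, 15.66, 15.57, 15.28 and 15.32. In LW TN they were 16.01, 15.65, 16.01 and 15.85, and in LW HS they were 15.70, 16.54, 16.21, 16.45 and 15.58. Of the 9 LW pigs, 7 lay above the highest Creole pig, so the breeds overlapped in a narrow range. The mean was 15.32 ± 0.34 (SD, n = 8) in Creole and 16.0 ± 0.35 (SD, n = 9) in LW. The fitted difference was 0.71 on the log2 scale, or 1.63-fold (SE 0.14, limma adjusted p = 0.00179). All 4 IGFBP6 probes passed, with differences from 0.53 to 0.72. With slide as a block the difference was 0.65 (adjusted p = 0.00799).

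The F1 pigs overlapped both breeds in IGFBP6. In F1 TN the levels were 14.76, 15.12, 15.62 and 15.28, and in F1 HS they were 15.94, 15.47, 15.77, 15.91 and 15.96. F1 was lower than LW by 0.46 on the log2 scale (log2 difference -0.46, limma adjusted p = 0.047) on the representative probe, whereas the other 3 probes did not pass (adjusted p between 0.0539 and 0.346). This call was lost under 5 of 9 other settings and in 19 of the 26 fits that left out 1 array. The interval of F1 minus Creole ran from -0.04 to 0.53 (adjusted p = 0.608).

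With the stromal score in the model, the LW minus Creole difference was 0.48 for IGFBP6 (adjusted p = 0.0775), 0.40 for IGFBP2 (adjusted p = 0.0726) and 1.15 for IGF2 (adjusted p = 0.00583). IGF2 still passed. IGFBP6 and IGFBP2 did not, although the IGFBP2 difference was about as large as without the score (0.39).

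IGFBP2, the main binding protein released by adipocyte precursors, was higher in LW by a smaller amount. In Creole TN its levels were 10.09, 10.78 and 10.41, and in Creole HS they were 10.04, 10.25, 10.43, 10.18 and 10.52. In LW TN they were 10.55, 10.59, 10.38 and 10.70, and in LW HS they were 10.80, 10.92, 11.09, 10.97 and 10.51. Both breeds overlapped, and 4 of the 9 LW pigs lay above the highest Creole pig. The fitted difference was 0.39 on the log2 scale, or 1.31-fold (SE 0.098, limma adjusted p = 0.00989). All 4 probes passed, with differences from 0.34 to 0.39, and with slide as a block the representative probe gave 0.33 (adjusted p = 0.0263).

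On the representative probe, the F1 mean of IGFBP2, 10.60 ± 0.126 (SD, n = 9), lay between 10.34 ± 0.248 (SD, n = 8) in Creole and 10.72 ± 0.237 (SD, n = 9) in LW. The F1 levels were 10.40, 10.69, 10.43 and 10.62 in TN and 10.57, 10.63, 10.78, 10.59 and 10.72 in HS. Neither F1 minus LW (-0.12, interval -0.32 to 0.08) nor F1 minus Creole (0.27, interval 0.07 to 0.47, adjusted p = 0.313) passed. The LW minus Creole difference was 0.57 in HS (limma adjusted p = 0.00954) and 0.13 in TN (interval -0.17 to 0.42). The interaction did not pass by limma (adjusted p = 0.897). On the other IGFBP2 probes, F1 minus LW was -0.085 (A_72_P178161), -0.016 (A_72_P265302) and 0.0034 (O12823). There F1 lay nearer to LW than on the representative probe.

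Within HS alone, the same 3 genes passed in LW minus Creole, where 6.23% of named genes passed, and IGFBP6 did so at an adjusted p of 0.0468. That call was lost under 4 of 9 other settings and in 19 of the 26 fits that left out 1 array. Within TN alone, 0 of the 10 genes passed by limma, where 0.305% of named genes passed, although 4 had an unadjusted p under 0.05. IGFBP6 differed by 0.85 in TN (adjusted p = 0.0853).

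**Figure D3:**
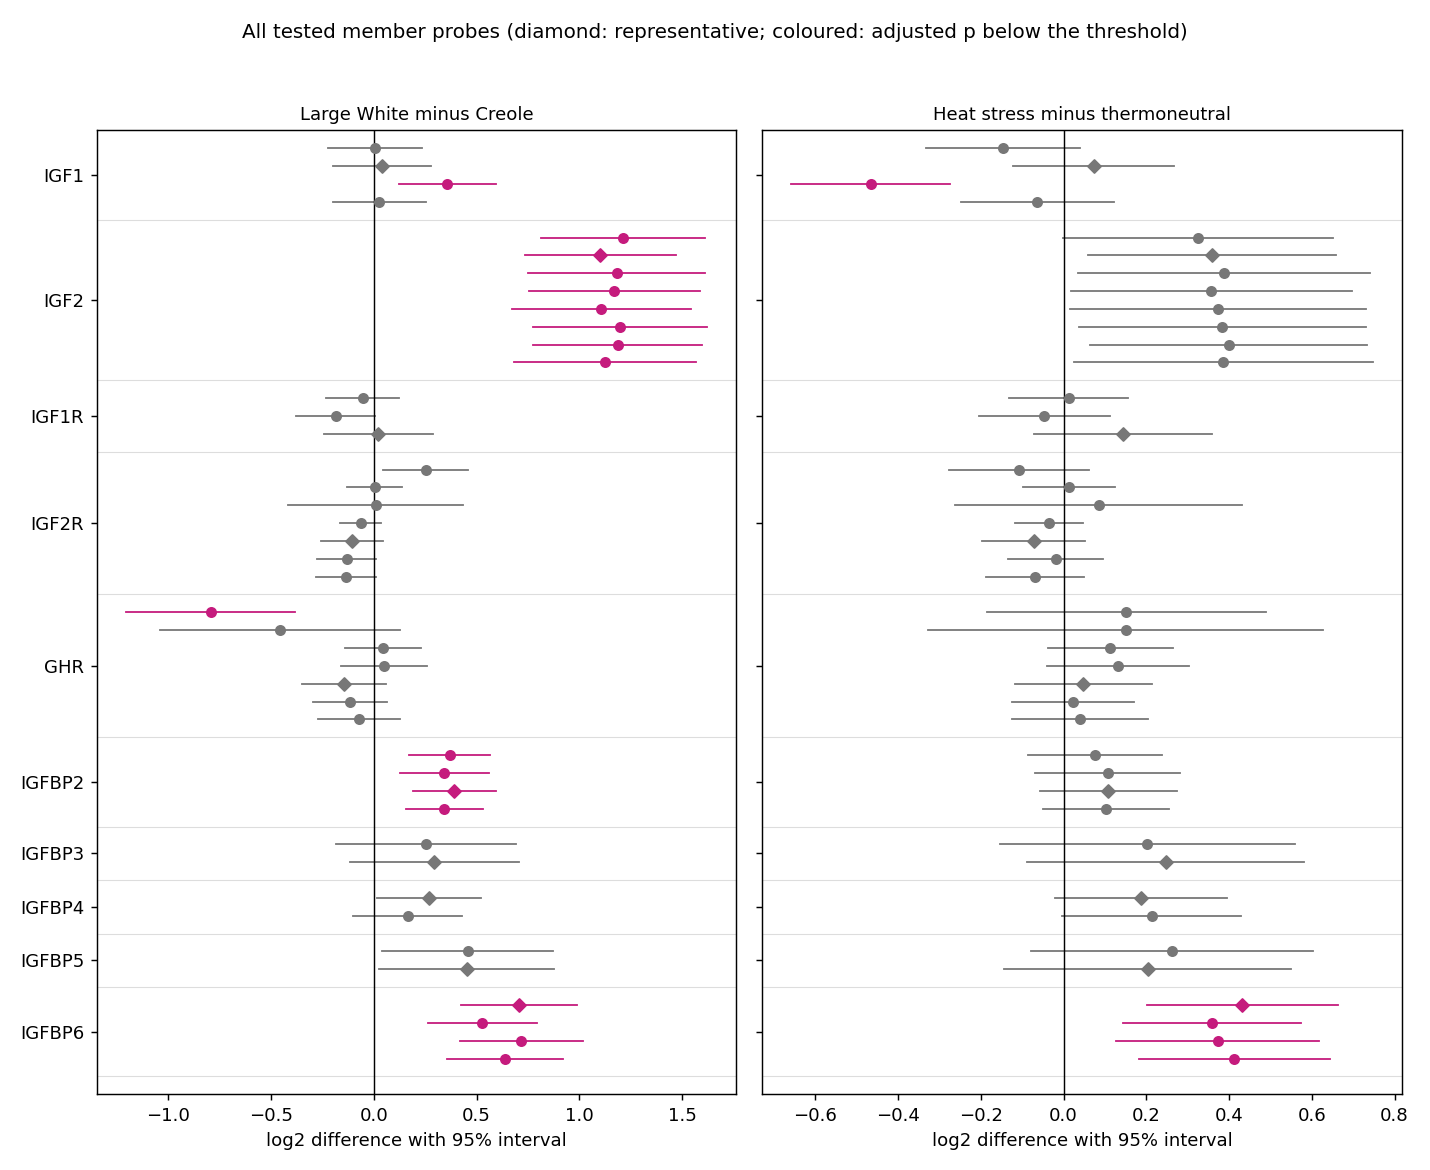
Estimated log2 differences with 95% intervals (horizontal axes) for the 43 tested member probes, grouped by gene, for LW minus Creole and for HS minus TN; diamonds mark the representative probe, and coloured symbols passed an adjusted p of 0.05. All probes of IGF2, IGFBP2 and IGFBP6 pass in the breed comparison, whereas 1 probe each of GHR and IGF1 departs from the other probes of its gene.

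GHR, the receptor of growth hormone, showed a breed difference on 1 of its 7 probes. On the representative probe, A_72_P569989, the means were 14.44 ± 0.21 (SD, n = 8) in Creole, 14.34 ± 0.23 (SD, n = 9) in F1 and 14.29 ± 0.18 (SD, n = 9) in LW, and the difference did not pass (-0.15, interval -0.35 to 0.06, adjusted p = 0.345). The probe at the end of the coding sequence, A_72_P441429, gave 0.05 (interval -0.16 to 0.26). Probe A_72_P060151 was lower in LW (log2 difference -0.79, SE 0.20, limma adjusted p = 0.0101). It had 13.87, 13.72 and 13.84 in Creole TN and 13.89, 14.01, 13.62, 14.13 and 14.16 in Creole HS. The Creole pigs thus lay close together on this probe. With the stromal score the difference was -0.88 (adjusted p = 0.0513), and with slide as a block it was -0.79 (adjusted p = 0.0217).

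The other breeds were widely spread on A_72_P060151. In LW TN the levels were 13.18, 13.46, 13.14 and 12.44, and in LW HS they were 13.43, 13.17, 12.39, 13.88 and 12.83. In F1 TN they were 12.82, 12.86, 13.72 and 14.00, and in F1 HS they were 13.78, 14.10, 13.95, 13.04 and 13.00. The F1 pigs fell into 4 at 13.04 or below and 5 at 13.72 or above, with both kinds at each temperature. The level of A_72_P060151 minus that of A_72_P569989 in the same pig ranged from -0.62 to -0.47 in Creole, from -1.64 to -0.51 in F1 and from -1.83 to -0.47 in LW. As the probe was singled out after its values were seen, this gap between probes was not tested. The probe A_72_P127966, assigned to GHR only by a description that names a trout growth hormone receptor, differed by -0.46 (interval -1.04 to 0.13) and correlated with the other GHR probes at 0.099 to 0.204 over the 26 arrays.

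**Figure D4:**
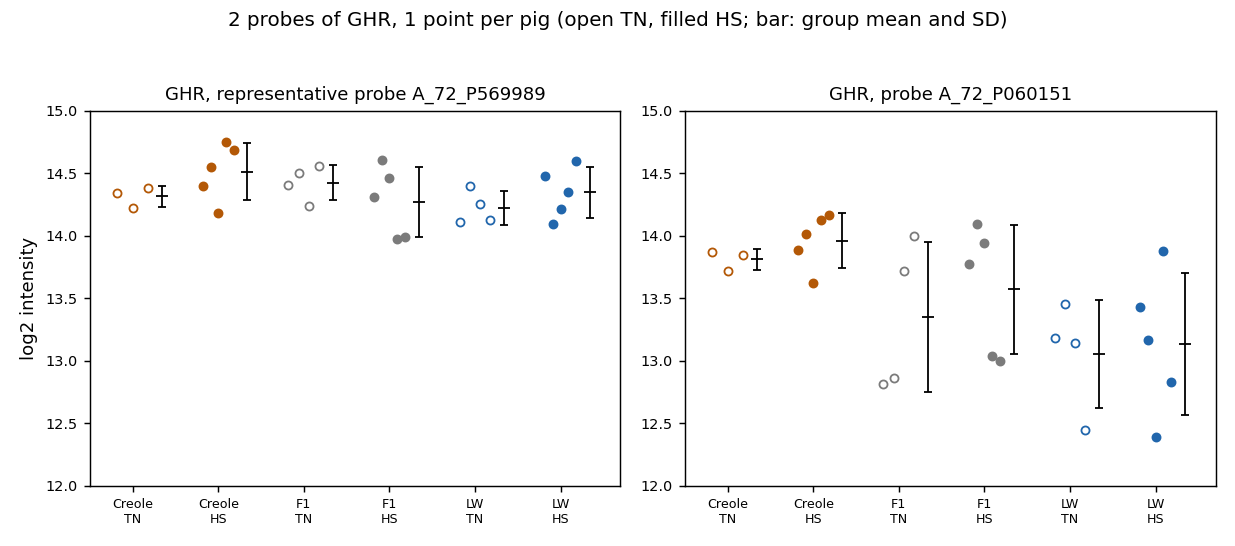
Levels (log2 intensity, same vertical range) of 2 GHR probes in the 6 groups; each point is 1 pig, open for TN and filled for HS, and the bars give the group mean and SD. The representative probe overlaps in all groups, whereas on A_72_P060151 the 8 Creole pigs lie between 13.62 and 14.16 and LW and F1 pigs reach down to 12.39 and 12.82.

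IGF1, the main product of growth hormone action, did not pass between breeds on its representative probe. The means were 10.17 ± 0.31 (SD, n = 8) in Creole, 10.35 ± 0.20 (SD, n = 9) in F1 and 10.20 ± 0.21 (SD, n = 9) in LW. The LW minus Creole difference was 0.04, with an interval from -0.20 to 0.28. Of the other 3 probes, A_72_P306168 was higher in LW by 0.36 (limma adjusted p = 0.0361), a call lost in 8 of the 26 fits that left out 1 array and under 2 of 11 other settings. It had 6.90, 6.35 and 7.19 in Creole TN, 6.30, 6.19, 6.55, 5.78 and 6.60 in Creole HS, 7.01, 7.28, 7.08 and 7.18 in LW TN and 6.97, 6.75, 6.57, 6.37 and 6.67 in LW HS. With the 75th percentile scaling the difference was 0.65 (adjusted p = 0.0405). LW TN lay above LW HS and Creole HS without overlap, while LW HS overlapped both Creole groups. The probe correlated with the representative probe at 0.29.

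The receptors IGF1R and IGF2R did not pass in any comparison between breeds. IGF1R, the tyrosine kinase receptor of both growth factors, had means of 9.89 ± 0.34 (SD, n = 8) in Creole, 9.81 ± 0.26 (SD, n = 9) in F1 and 9.91 ± 0.23 (SD, n = 9) in LW, and its LW minus Creole interval ran from -0.24 to 0.29. IGF2R, the receptor that removes IGF2, had means of 13.18 ± 0.10 (SD, n = 8), 13.18 ± 0.19 (SD, n = 9) and 13.08 ± 0.16 (SD, n = 9), with an interval of LW minus Creole from -0.26 to 0.05. A different scaling, to the 75th percentile of the processed intensity, gave IGF2R a difference of -0.21 that passed (adjusted p = 0.0262), and an HS minus TN difference of -0.16 that passed (adjusted p = 0.0378). A pair of IGF2R probes of identical sequence correlated at 0.89 over the arrays, and the 7 IGF2R probes as a whole correlated at a median of 0.15.

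The other binding proteins, IGFBP3, IGFBP4 and IGFBP5, did not pass in LW minus Creole. IGFBP5, which binds to the extracellular matrix, had levels from 12.19 to 14.29 in Creole (SD 0.72, n = 8), from 12.38 to 13.56 in F1 (SD 0.34, n = 9) and from 13.29 to 13.81 in LW (SD 0.15, n = 9). All LW pigs lay above the Creole mean but inside the Creole range, and the difference of 0.45 did not pass (limma adjusted p = 0.146). Without replicate 5 of Creole HS, which had the highest level, it was 0.60 and passed (adjusted p = 0.0229), and with the stromal score it was 0.044 (adjusted p = 0.949). F1 lay 0.66 below LW (log2 difference -0.66, adjusted p = 0.0574), and 8 of the 9 F1 pigs were below the lowest LW pig. IGFBP3, the main carrier of the IGFs in blood, gave a LW minus Creole interval from -0.12 to 0.705. IGFBP4, an inhibitor of IGF action that PAPPA cleaves, gave 0.27 (interval 0.01 to 0.52, adjusted p = 0.149).

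In HS minus TN, 1 of the 10 genes passed, IGFBP6, where 12.5% of named genes passed. HS minus TN was 0.43 on the log2 scale, or 1.35-fold (SE 0.11, limma adjusted p = 0.013), and all 4 probes passed with 0.36 to 0.43. Of the 15 HS pigs, 13 lay above the TN mean of their own breed. The difference was no longer called with the 75th percentile scaling (0.31, adjusted p = 0.0847), without the breed term (0.40, adjusted p = 0.109), with the red blood cell score (0.47, adjusted p = 0.0566) or with the stromal score (0.26, adjusted p = 0.236). The red blood cell score ranged from -0.159 to 0.597 in TN and from -0.609 to 0.439 in HS, with 1 of its 4 tested markers, HBB, lower in HS. Of the 6 endothelial markers, only CDH5 passed, lower in HS (log2 difference -0.23, limma adjusted p = 0.0254). The median over the 6 was -0.034. Of the adipocyte markers, CIDEA was lower in HS (log2 difference -0.43, adjusted p = 0.000234) and ADIPOQ higher (0.16, adjusted p = 0.0384). The Schwann cell markers PMP22 (0.40, adjusted p = 0.000611) and MBP (1.13, adjusted p = 0.000558) were higher in HS. The part of the adipocyte, endothelial and Schwann cell markers in the IGFBP6 difference was not tested. The stromal score ranged from -0.741 to 0.236 in TN and from -0.262 to 0.46 in HS, with 4 of 10 markers higher in HS and a median of 0.24. Within slides, HS was above TN on 4 of 5, and with slide as a block the difference was 0.46 (adjusted p = 0.0148).

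Counted by probe, 5 of the 43 member probes passed in HS minus TN, 4 higher and 1 lower, against 12.2% of all probes. The lower one was A_72_P306168 of IGF1, which fell by 0.47 on the log2 scale (log2 difference -0.47, SE 0.093, limma adjusted p = 0.00216). None of the 15 HS pigs was above the TN mean of its own breed on this probe. The mean fell from 6.95 ± 0.27 (SD, n = 11) to 6.47 ± 0.28 (SD, n = 15). The other 3 IGF1 probes gave 0.07, -0.06 and -0.15, and none of them passed. The median of the 10 genes was 0.165, and that of all named genes was -0.0047.

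The remaining members did not pass in HS minus TN. IGF2 gave 0.36 (interval 0.06 to 0.66, adjusted p = 0.107), with 12 of 15 HS pigs above the TN mean of their breed. GHR gave 0.05 (interval -0.12 to 0.21). IGF1R gave 0.14 (interval -0.07 to 0.36), and IGF2R gave -0.07 (interval -0.20 to 0.05).

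Within single breeds, no member gene passed in HS minus TN by limma. In Creole, 0.0788% of named genes passed and 2 member genes had an unadjusted p under 0.05. These were IGFBP6 and IGFBP3, the latter with 0.90 (interval 0.36 to 1.45, adjusted p = 0.193). The 3 TN pigs had a mean level of 8.26 ± 0.225 (SD) and the 5 HS pigs one of 9.17 ± 0.55 (SD), and the groups overlapped between 8.45 and 8.51. In F1, 0.394% of named genes passed, and the 2 genes with an unadjusted p under 0.05 were IGFBP6 (0.62, adjusted p = 0.115) and IGF2R (-0.27, adjusted p = 0.162). In LW, 1.42% passed, and IGFBP4 (0.44, adjusted p = 0.174) and IGFBP2 (0.30, adjusted p = 0.222) had an unadjusted p under 0.05. The IGFBP4 levels ran from 12.28 to 12.59 in LW HS and from 11.90 to 12.23 in LW TN. In how many genes these groups lay apart was not counted. The interaction of breed and temperature passed for 0 of the 10 genes by limma and 0% of named genes, and 1 gene, IGFBP3, had an unadjusted p under 0.05.

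In F1 minus the mean of the parental breeds, 0 of the 10 genes passed by limma, with 0% of named genes, and 3 had an unadjusted p under 0.05. These were IGF2 (-0.43), IGFBP5 (-0.44, adjusted p = 0.47) and IGFBP4 (-0.22, adjusted p = 0.554), all below the mid-parent. In F1 minus Creole, 0 of the 10 genes passed by limma, with 0.217% of named genes, and 1 gene, IGFBP2, had an unadjusted p under 0.05. In F1 minus LW, the 2 genes that passed were IGF2 and IGFBP6, both lower in F1.

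Other genes of the pathway, taken from a list of 34, had probes for 27 and were tested for 25. In LW minus Creole, 3 of the 25 passed, all higher in LW, and the median difference over the 25 was 0.04. This is to be read against the 15.3% of all named genes that passed. The 3 were STC1, a stanniocalcin that inhibits the protease PAPPA (0.68, adjusted p = 0.00392), IRS1, the docking protein of the insulin and IGF1 receptors (0.40, adjusted p = 0.00886), and HTRA1, a secreted protease that cleaves binding proteins (0.39, adjusted p = 0.0304). In HS minus TN, 4 of the 25 passed, all higher in HS, with a median of 0.04 over the 25, against 12.5% of all named genes. The 4 were IRS1 (0.29, adjusted p = 0.0188), SH2B1, an adaptor of JAK2 (0.21, adjusted p = 0.0156), IGFBP1 (0.23, adjusted p = 0.0269) and GRB2, an adaptor of the Ras pathway (0.19, adjusted p = 0.0276). Genes of the list that respond to growth hormone signalling did not pass in HS minus TN: SOCS2 gave 0.37 (adjusted p = 0.105), CISH 0.38 (adjusted p = 0.145), SOCS3 -0.13 (adjusted p = 0.566) and IGFALS 0.04 (adjusted p = 0.831). The signalling genes JAK2, STAT5A and STAT5B passed in neither comparison.

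The members varied together only loosely among pigs of the same group. After subtraction of the group means, the strongest of the 45 pairs were IGF1R with GHR (r = 0.65, rho = 0.63), IGFBP3 with IGFBP5 (r = 0.61, rho = 0.38), IGF1R with IGFBP3 (r = 0.57, rho = 0.54) and GHR with IGFBP3 (r = 0.56, rho = 0.64), while GHR with IGFBP6 was negative (r = -0.56, rho = -0.51). In permutation tests of arrays within groups, none of the 45 pairs passed after Benjamini-Hochberg adjustment. The smallest adjusted p was 0.0975 for r and 0.121 for rho, with unadjusted p-values of 0.0032 for GHR with IGFBP6, 0.00589 for IGF1R with GHR and 0.0065 for GHR with IGFBP3, and the corresponding unadjusted p-values for rho were 0.0102, 0.00722 and 0.00268. Without the 2 arrays farthest from the median of the first gene, r was -0.60, 0.59 and 0.45.

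The named genes whose levels over the 26 arrays were most like those of a member, among 10146 genes that are no members, were sought for GHR, IGF1 and IGF2. For IGF2 they were the probe annotated as ADAT3 (r = 0.96), EZR (r = 0.77) and BICC1 (r = 0.77). Within groups the first stayed at 0.91 and the others were at 0.47 and 0.57. For GHR they were CRADD, RAB9A and ZBTB44 (r = 0.87, 0.86 and 0.86), and for IGF1 they were TDP2, GFRA2 and GNAZ (r = 0.72, 0.65 and 0.63). These values describe the arrays, which share slides and normalization.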

How the data were processed

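SCAT RNA of 26 pigs was measured on one-colour Agilent arrays, read by the authors with Agilent Feature Extraction 10.10.1.1 per the labels. The deposited scanner files hold the pixel intensity per spot, not normalized, with a processed intensity and flags. A matrix of log2 levels for 44104 probes, deposited alongside, served as an alternative. The methods of the study state quantile normalization and mixed models (limma with dream) with random pen, slaughter day and parents. These random terms are not in the labels and were left out.

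Median pixel intensity was quantile-normalized without background correction, spots of 1 probe were averaged, and a probe was kept where at least 8 arrays had it well above background (R 4.3.3, limma 3.58.1). Non-uniform spots, at most 16 per array, were set to missing. Models with breed and temperature, or with the 6 group means, were fitted to all 44703 probes with lmFit and eBayes with trend, and p-values adjusted over all of them by Benjamini-Hochberg. They were tested on simulated data. Percentages of named genes refer to 10156 genes with 1 probe each. Probes were named from the files and a RefSeq table (Sscrofa11.1), and no genome sequence was used. All 10 members were named, though not each of their probes, and the member genes past 0.05 were described in full. The members and lists were chosen with earlier results of these data known. The labels give separate animals. The number of arrays limits the precision.

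The alternatives were other background correction, scaling, filters and model terms, slide as a block, marker scores as covariates, and leaving out each array. The values of 1 marker gene, and the counts of its list, are not reported here.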

Additional observations from a re-analysis of the deposited data

Results flagged for a closer look

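Among 50 combinations of a member gene and a group of 4 or 5 pigs, 2 held a pig that stood apart from the rest of its group. Chance alone sets a value apart in about 1 in 20 groups. In IGF2, replicate 3 of Creole HS had a log2 level of 15.48, whereas the next highest pig of the group had 14.44 and the lowest 14.07. In IGFBP4, replicate 4 of LW TN had 12.23, whereas the next highest had 11.96 and the lowest 11.90. Groups of 3 were not examined. The F1 HS pig with an IGF2 level of 15.65 was not among them.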

How the results depend on the processing

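The LW minus Creole difference of IGF2 stayed between 1.00 and 1.18 under 12 other settings and between 1.04 and 1.24 with each array left out, and passed in all of them. With the stromal score as a covariate, 1 of the 10 genes (IGF2) was called in LW minus Creole instead of 3. IGFBP2 lost its call at a difference of 0.40, against 0.39 without the score, and IGFBP6 at 0.48, against 0.71. The count of members called in HS minus TN was 0 without the breed term, with the red blood cell score and with the stromal score. The shares of all named genes that passed in these fits are not given, so these counts are no result about the members. LW minus Creole within TN called 1 gene (IGF2) with array weights, and 0 to 1 with each array left out, the 1 arising without replicate 1 of F1 HS or replicate 3 of Creole HS. The cause was not tested. Signs turned only for differences that did not pass. GHR in HS minus TN was -0.075 with the 75th percentile scaling and -0.015 with the red blood cell score. IGF1R in LW minus Creole was -0.019 with slide as a block, -0.072 with the mean of all probes, and -0.046 to 0.098 with each array left out. IGF1 in LW minus Creole was -0.040 with the stromal score and -0.022 to 0.12 with each array left out, and in HS minus TN it was -0.15 with the mean of all probes. IGFBP5 in HS minus TN was -0.11 with the stromal score. No paired analysis was possible, because TN and HS pigs were different animals and the labels do not say which pigs were littermates. The number of arrays, 3 to 5 per group, limits what differences within a temperature or breed can be called.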

Other observations

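The array holds a probe annotated as IGF2AS, an antisense transcript of IGF2, that is not among the members. Its log2 level was 12.73 ± 0.0765 (SD, n = 8) in Creole, 12.74 ± 0.099 (SD, n = 9) in F1 and 12.71 ± 0.0716 (SD, n = 9) in LW. LW minus Creole was -0.0086 (SE 0.040, limma adjusted p = 0.914), HS minus TN was 0.11 (adjusted p = 0.0318), and its correlation with the IGF2 probe over the 26 arrays was -0.048. The Creole HS and F1 HS pigs that stood high in IGF2 had 12.72 and 12.67 on it.

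The probe annotated as ADAT3, which was the gene most like IGF2 over the arrays, was higher in LW than in Creole by 0.83 on the log2 scale (SE 0.15, limma adjusted p = 0.00133) and lower in F1 than in LW (log2 difference -0.68, adjusted p = 0.0155). The same Creole HS and F1 HS pigs had 9.43 and 9.87 on it, whereas the breed means were 8.63 (Creole), 8.76 (F1) and 9.45 (LW). The longest run of bases it shares with an IGF2 probe is 9. Why the probes move together was not tested.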
